A study of Mus musculus with 12 samples.

Results

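Ribosome production is one of the largest costs of a dividing blood progenitor, and the genes that carry it out were followed here in mouse hematopoietic stem and progenitor cells (HSPC) that had received 1 of 2 microRNAs. The 35 genes are Myc and 34 factors of ribosome assembly, chosen by name from the 48709 genes listed in each of the 2 deposited expression tables, of which 21134 were above 0 in any library. All 35 were listed in both tables, and all 35 passed the filter on low values (a mean of at least 1 RPKM over the 6 libraries of a table) in both. RPKM gives the reads of a gene relative to its length and to the size of its library. The cells came from the bone marrow of wild-type (WT) mice and received miR184, miR499 or a control miRNA by transfection. RNA of sorted cells was taken 2 days later. The order of sort and transfection, the gate and the animals' age are not stated in the sources used here. The 12 libraries are 6 of the control miR and 3 of either miRNA. One table holds the miR184 libraries with controls 1 to 3 and the other the miR499 libraries with controls 4 to 6. The titles and treatment labels name the miRNA of each treated library and were followed, while the descriptions of the same libraries put the word control before its name. Either miRNA was set against the controls of its table. All groups share the genotype and a transfection, and no untransfected cells were analysed here. Whether replicates are separate animals or cultures is not stated in the labels. The p-values then measure only the spread between libraries, which may be technical.

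Myc is a transcription factor that binds DNA with its partner Max, preferably at the E-box CACGTG, and raises the expression of genes for cell growth. Ribosome assembly starts in the nucleolus, where RNA polymerase I makes a long ribosomal RNA precursor. Guide RNA-protein particles (snoRNPs) modify this precursor: those of the box C/D kind methylate it and those of the box H/ACA kind make pseudouridine. The small subunit processome then shapes the part that becomes the 40S subunit, while a separate set of factors builds the 60S subunit. In blood progenitors these genes are high while cells grow and divide.

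The 2 miRNAs act through their seed (bases 2 to 8 from the 5′ end), which pairs with messenger RNAs. The mature sequences of the arms taken as the active ones are shown from RefSeq (GRCm38.p6), with the seed in capitals, because the seed decides which members hold a site. The mature miR-184-3p arm is encoded at chr9:89802263-89802284 on the minus strand and the mature miR-499-5p arm at chr2:155622893-155622913 on the plus strand.
mmu-miR-184-3p: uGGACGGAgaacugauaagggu
mmu-miR-499-5p: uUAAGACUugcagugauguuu

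Seed matches were searched on the sense strand of the longest annotated 3′ UTR (GENCODE M21, GRCm38) as TCCGTCCA, TCCGTCC or CCGTCCA for miR-184-3p and as AGTCTTAA, AGTCTTA or GTCTTAA for miR-499-5p. The 7-base forms lie within the 8-base one, and overlapping matches were counted once. No member held a match to miR-184-3p (0 of 35), where 5.52% of 9686 tested genes did. A match to miR-499-5p was held by 6 of 35 members (17.1%), beside 17.5% of 9111 tested genes. The 6 were Polr1a, Nolc1, Nop58, Ltv1, Wdr12 and Nip7. Myc held neither. Of the 6, Ltv1 alone passed in the main fit without miR499 3 below. Wdr12 passed in that fit when genes needed a mean of at least 5 RPKM. The 7-base match of Ltv1 and the 8-base matches of Polr1a, Nop58 and Nip7 are shown with the matching bases in capitals. Wdr12 also held 8-base matches, in a 3′ UTR of 8379 bases, and these are not shown. A match is a stretch of letters and was not tested as a site.
Ltv1: ccatgtcagcAGTCTTAgttatgctct
Polr1a: attaaagtatAGTCTTAAc
Nop58: tcgtgttaagAGTCTTAAaagtggtaat
Nip7: gatcctggccAGTCTTAAacccaaaacc

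Between 31990355 (control 6) and 46601798 reads (control 1) lay behind each library. A library in each treated group stood apart. For miR184 3, 13675 genes were above 0, while its table otherwise had 16702 to 17136. For miR499 3, RPKM summed to 391857 over all genes, while its table otherwise had 465018 to 483368. Results of each miRNA are therefore given with and without that library, which was decided with the data in view. In Kit and in Myc miR499 3 lay apart from its own group in the direction of the libraries of the other table. The receptor gene Kit was at 46.9 to 57.1 RPKM in the miR184 table and at 8.17 to 9.24 in controls 4 to 6, and stood at 14.1 and 10.7 in miR499 1 and 2 and at 34.3 in miR499 3. Whether miR499 3 belongs to another batch or carries a wrong label was not tested, and miR499 results are given with and without it. A mark in the descriptions is shared by controls 4 to 6 and by no other library, so whatever it stands for cannot be told apart from the absence of miR499 in their table. All 13 HSPC marker genes were above 0 in every library, with summed levels of 606 to 639 RPKM in the miR184 table and 502 to 565 in the other. The B cell gene Pax5 and the T cell gene Cd3e stayed at or under 0.016 RPKM, and the stromal genes Lepr and Cxcl12 at or under 0.023. The whole lists stood higher, at 275 to 498 RPKM summed over 12 lymphoid markers and 5.5 to 25.8 over 8 stromal and endothelial ones. Markers of mast cells, basophils and eosinophils summed to 700 to 2921 RPKM over 8 genes, and megakaryocyte markers to 546 to 1765 over 7. Neutrophil granule genes were high throughout, at 6613 to 10700 RPKM summed over 12 markers, led by Mpo and Elane, which early myeloid progenitors also express. In bulk RNA, fewer cells of a type and less RNA per cell cannot be told apart.

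Within a table the control libraries gave close values for the members. In controls 1 to 3 the mean level ran from 3.86 RPKM for Utp20 to 449 RPKM for Npm1, the gene of the nucleolar chaperone nucleophosmin. Nhp2, a protein of every box H/ACA particle, followed at 175 RPKM and Myc at 128. In controls 4 to 6 the level ran from 1.36 RPKM for Utp20 to 788 for Npm1, and Myc stood at 45.8. Npm1 has near-identical copies elsewhere in the genome, so its reads may be split between entries. The tables were made separately, and a level set across them was not tested.

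**Figure D1:**
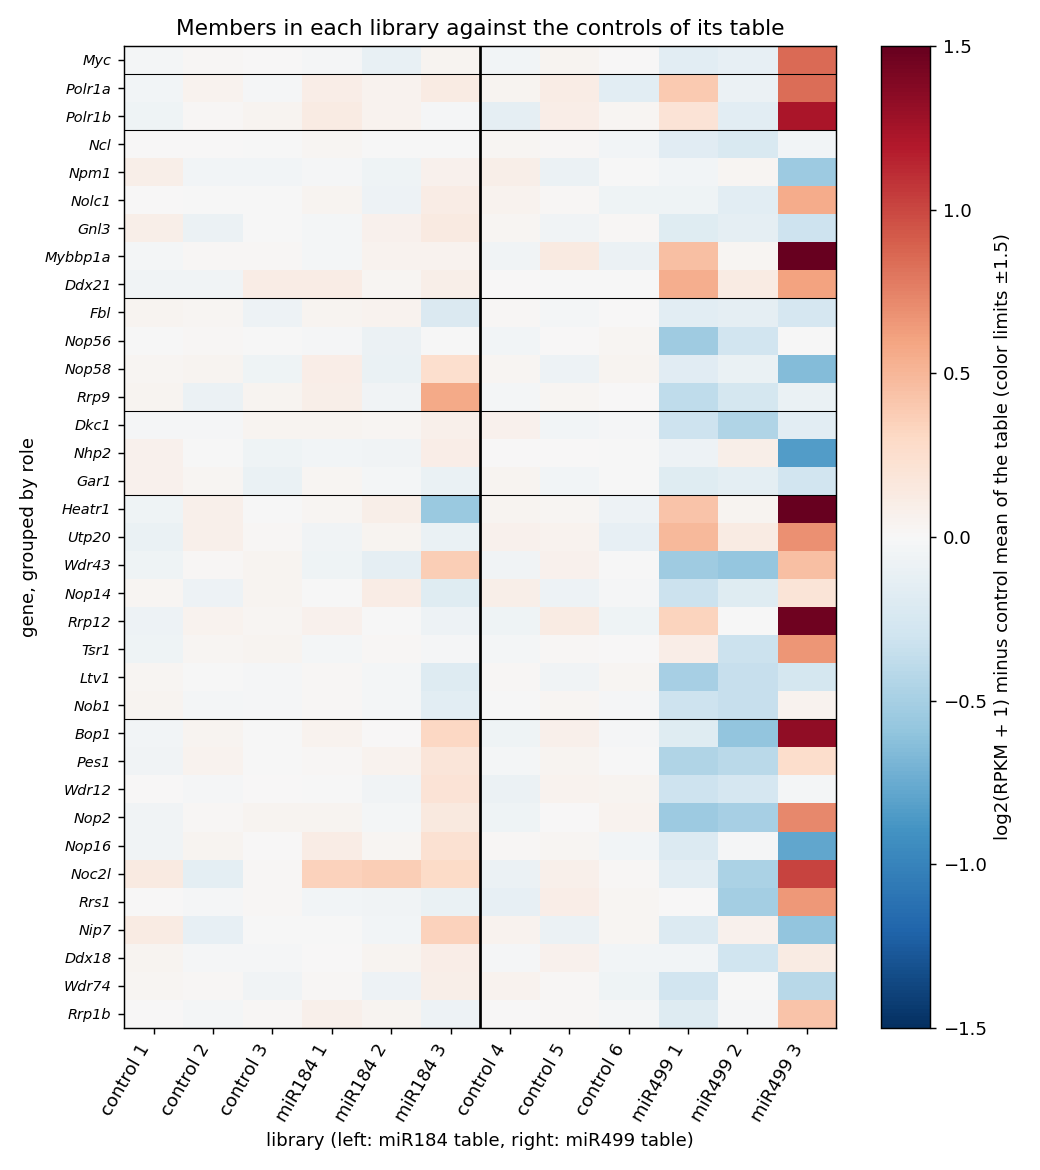
Heat map of the 35 members (rows, grouped by role in the order of the text) in the 12 libraries (columns), as log2(RPKM + 1) minus the mean of the 3 controls of the same table. Red is higher and blue lower, with colors limited at 1.5. The column of miR499 3 holds the largest differences, in both directions, and the columns of miR499 1 and 2 are mostly blue.

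To find out whether miR184 altered ribosome assembly genes, its 3 libraries were compared with controls 1 to 3. All members but Noc2l, Polr1a and Rrs1 overlapped with their controls. Myc (chromosome 15, 61985391 to 61990374, GRCm38) was at 126, 130.2 and 129 RPKM in controls 1 to 3 and at 127, 119 and 133 with miR184. Its groups overlapped, and its log2 change was -0.02 ± 0.05 (SE), with a 95% interval from -0.15 to 0.10. Ncl, which encodes nucleolin, a nucleolar protein that binds the ribosomal RNA precursor, was at 83.6, 83.6 and 83.4 RPKM in controls and at 85.0, 83.2 and 83.0 with miR184. Npm1 was at 475, 436 and 436 RPKM in controls and at 442, 429.6 and 469.7 with miR184. Both genes overlapped between the groups and had log2 changes within 0.01 of 0, with intervals from -0.09 to 0.10 and from -0.14 to 0.13. Fbl encodes fibrillarin, the methyltransferase of box C/D particles. It stood at 102, 101 and 93.9 RPKM in controls and at 102, 103 and 84.9 with miR184, where only miR184 3 lay under all controls.

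Noc2l had the smallest p of the 35 members with miR184. It encodes a factor of 60S precursor transport that also inhibits histone acetyltransferases (chromosome 4, 156236010 to 156247616). Its level was 67.3, 55.0 and 61.6 RPKM in controls and 77.6, 79.0 and 74.6 with miR184, so all 3 treated libraries lay above all controls. The means were 61.3 ± 6.16 and 77.1 ± 2.24 RPKM (SD, n = 3 each), a log2 change of 0.33 ± 0.08 that did not pass (unadjusted p = 0.0032, adjusted p = 0.437, limma). Without miR184 3 the change was 0.35 ± 0.08 (adjusted p = 0.249, limma).

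The other members of smallest p with miR184 had changes of 0.13 or less on the log2 scale. Nop16, a 60S factor, stood at 48.1, 51.7 and 50.4 RPKM in controls and at 54.1, 51.1 and 58.7 with miR184. Bop1 and Pes1 form, with Wdr12, the PeBoW complex that processes the 60S ribosomal RNAs. Bop1 was at 44.6, 47.3 and 45.8 RPKM in controls and at 47.6, 46.2 and 57.2 with miR184, and Pes1 at 55.0, 59.4 and 56.9 and at 57.8, 59.4 and 65.1. In all 3 genes the groups overlapped and miR184 3 was the highest library. Rrs1, which brings the 5S ribosomal RNA particle into the 60S precursor in yeast, was at 47.2, 46.1 and 47.4 RPKM in controls and at 45.5, 45.1 and 43.5 with miR184. Its 3 treated libraries lay under all controls, with a log2 change of -0.07 ± 0.05. Polr1b, the second largest subunit of RNA polymerase I, was at 10.9, 11.6 and 11.8 RPKM in controls and at 12.5, 11.8 and 11.3 with miR184, and Wdr43, a processome protein, at 56.4, 59.8 and 60.4 and at 56.1, 53.3 and 76.4. Both overlapped. Without miR184 3, the 2 remaining values of Wdr43 lay under the controls. That difference, -0.10 ± 0.05 in log2 units, had an adjusted p of 0.795 by limma.

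Of the 35 members 0 passed an adjusted p of 0.05 by limma with miR184, and 0 of 10372 tested genes did (0.0%). An unadjusted p under 0.05 was reached by 1 member, Noc2l, and by 475 genes (4.58%). With limma voom on recovered reads 0 genes passed and 489 had such a p. Without miR184 3, again 0 members and 0 genes passed (0.0%), and an unadjusted p under 0.05 was found for Noc2l and 722 genes (6.96%). Groups did not overlap in 2 members on the higher side, Noc2l and Polr1a, and in 1 on the lower side, Rrs1. Over all tested genes the share was 7.3% higher and 4.41% lower. The median log2 change was 0.02 over the members and 0.002 over all genes. By role, 10 of 11 factors of 60S assembly and 1 of 8 of the small subunit were above 0, with medians of 0.05 and -0.03. Without miR184 3 these were 7 of 11 and 3 of 8, with medians of 0.02 and -0.004, and the median over the members was 0.009. The members whose groups did not overlap then numbered 5 higher, beside 13.2% of genes, and 3 lower, beside 8.59%. A 95% interval of median width reached 0.24 log2 units to either side.

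With miR499, compared with controls 4 to 6, no member passed in the fit of all 6 libraries without a replicate block, and miR499 3 stood far from the other 2 treated libraries in many members. Myc was at 44.4, 47.0 and 46.1 RPKM in controls and at 41.0, 42.0 and 83.0 with miR499. The first 2 treated libraries lay under all controls and miR499 3 above them. Mybbp1a, a nucleolar partner of Myb, was at 6.83, 7.91 and 6.64 RPKM in controls and at 10.1, 7.30 and 36.1 with miR499. The 95% interval of its log2 change, 0.89 ± 0.52, ran from -0.34 to 2.13.

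Ltv1, a factor of late 40S maturation (chromosome 10, 13178140 to 13193168, minus strand), had the smallest p. It was at 58.9, 55.9 and 59.6 RPKM in controls and at 40.9, 45.5 and 48.1 with miR499, where all 3 libraries lay under all controls. Its log2 change was -0.37 ± 0.11 (unadjusted p = 0.014, adjusted p = 0.491, limma). Dkc1, the pseudouridine synthase dyskerin, was at 68.4, 63.8 and 64.6 RPKM in controls and at 52.7, 47.6 and 58.7 with miR499, a log2 change of -0.31 ± 0.12. Rrp9, a protein of the U3 box C/D particle, was at 24.0, 25.1 and 24.6 RPKM in controls and at 18.7, 20.3 and 22.9 with miR499. Both lay lower in 3 of 3 libraries, as did Fbl, at 140.0, 135 and 139 RPKM in controls and 123, 125 and 116 with miR499. Ddx21, a nucleolar RNA helicase, was at 15.0 RPKM in each control and at 22.4, 16.4 and 23.4 with miR499. Utp20, a large processome protein, was at 1.46, 1.45 and 1.16 RPKM in controls and at 2.30, 1.56 and 2.79. These 2 genes lay higher in 3 of 3 libraries, by 0.42 ± 0.16 and 0.43 ± 0.18 on the log2 scale (adjusted p = 0.491 for both, limma).

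In this comparison 0 of 35 members and 0 of 9815 tested genes passed by limma (0.0%). An unadjusted p under 0.05 was reached by 4 members, Ltv1, Ddx21, Dkc1 and Utp20, and by 992 genes (10.1%). With voom 0 genes passed and 930 had such a p. The groups did not overlap in 3 members on the higher side, beside 11.4% of tested genes, and in 7 on the lower side, beside 12.8%. The lower 7 were Ltv1, Dkc1, Rrp9, Fbl, the box C/D core gene Nop58, the box H/ACA gene Gar1 and Gnl3, which encodes nucleostemin, and the higher 3 were Ddx21, Utp20 and Heatr1. All 4 box C/D and all 3 box H/ACA genes were below 0, with medians of -0.26 and -0.27, beside -0.007 over all genes. Without miR499 3 these medians were -0.23 and -0.16, beside -0.06 over all genes, and 1 of the 3 box H/ACA genes was above 0. The 2 RNA polymerase I subunits were above 0, with changes of 0.38 for Polr1a and 0.42 for Polr1b. Polr1b was at 3.07, 3.77 and 3.54 RPKM in controls and at 4.13, 2.98 and 9.40 with miR499. A 95% interval of median width reached 0.45 log2 units to either side.

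**Figure D2:**
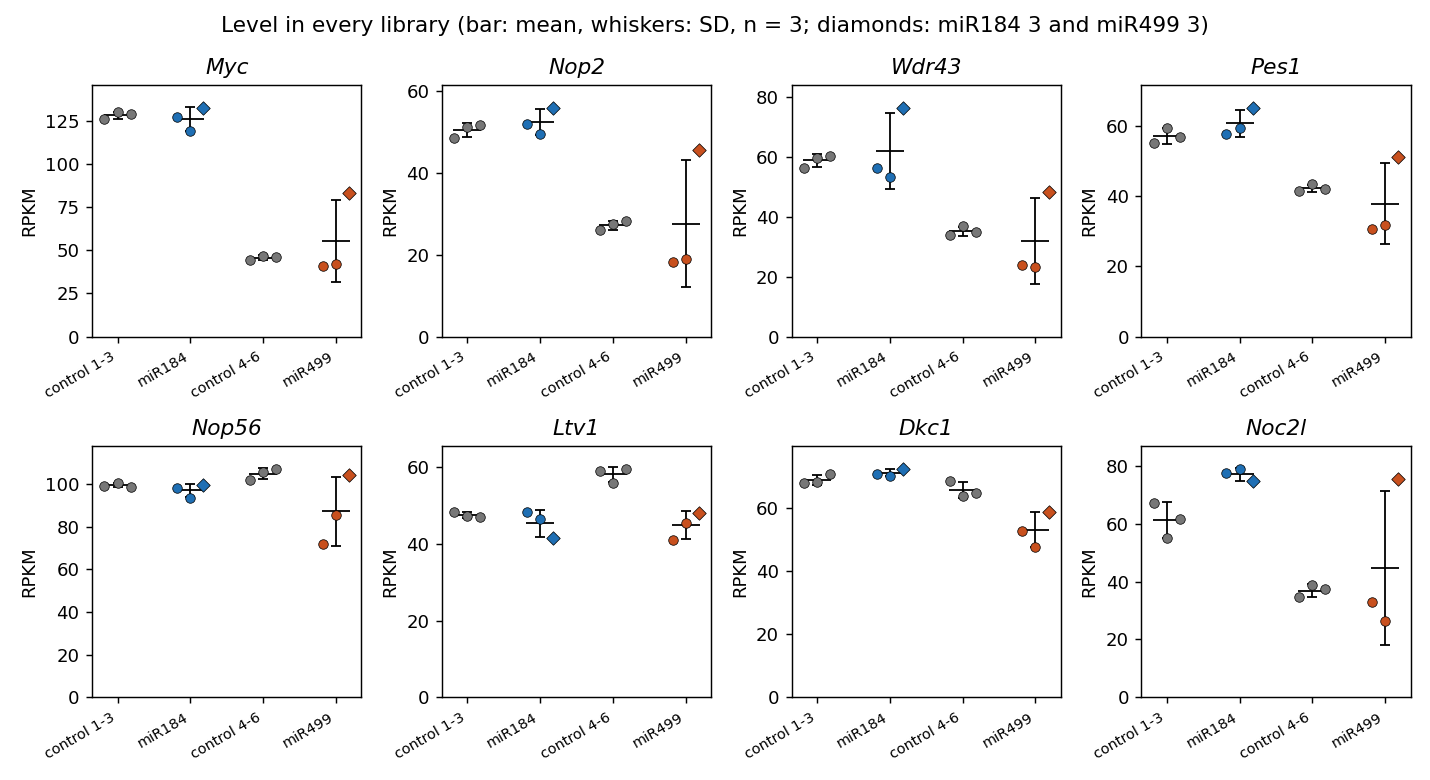
Level of 8 members in every library, in RPKM on axes that start at 0. Points are libraries, bars are means and whiskers SD (n = 3), and diamonds mark miR184 3 and miR499 3. In Nop2, Wdr43 and Pes1 the first 2 miR499 libraries lie under all controls of their table and the diamond above them. Myc and these 3 genes stand lower in controls 4 to 6 than in controls 1 to 3.

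Without miR499 3, 8 of the 35 members fell with miR499 and 0 rose. They were 2 of 4 box C/D genes, 1 of 3 box H/ACA genes, 3 of 8 of the small subunit and 2 of 11 of 60S assembly, with 0 of 6 nucleolar multifunctional proteins, 0 of 2 RNA polymerase I subunits and not Myc. Of all tested genes 13.7% fell and 3.47% rose (1340 and 341 of 9815), so the 22.9% of members that fell stand beside a table in which most calls were falls. With median-ratio scaling, 9.27% of genes fell and 4.75% rose, and 7 members fell and 0 rose. The calls rest on few libraries. Without control 5 as well, 0 members passed, beside 2 of 9815 genes. Without control 4 the number was 3, beside 339 genes, and without control 6 it was 2, beside 188 genes. The fits without miR499 1 or miR499 2 as well hold a lone treated library, which is assumed to vary like the controls, so only effect sizes are given. The median log2 change of the members was -0.15 without miR499 1 and -0.17 without miR499 2. All 8 lay below 0 in each of these fits.

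Among the genes that fell, Wdr43 (chromosome 17, 71615895 to 71659031) and Nop2 (chromosome 6, 125131909 to 125144753) fell furthest. Wdr43 was at 33.8, 36.8 and 35.05 RPKM in controls 4 to 6 and at 24.1 and 23.2 in miR499 1 and 2, with 48.4 in the library left out. It fell by 0.56 ± 0.07 on the log2 scale (SE, adjusted p = 0.0094, limma). Nop2, a methyltransferase of the 60S ribosomal RNA, was at 26.1, 27.5 and 28.3 RPKM in controls and at 18.3 and 19.0 with miR499, with 45.7 in the library left out. It fell by 0.53 ± 0.08 (adjusted p = 0.0094, limma). For both genes the 2 treated libraries lay under every control and the third lay above every control.

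Pes1 was at 41.4, 43.4 and 41.9 RPKM in controls, at 30.6 and 31.6 in miR499 1 and 2 and at 51.1 in miR499 3. It fell by 0.43 ± 0.07 without the last (adjusted p = 0.011, limma). Ltv1 fell by 0.42 ± 0.08 (adjusted p = 0.013, limma) and Dkc1 by 0.38 ± 0.08 (adjusted p = 0.016, limma), with the values given above. Nop56, a core protein of box C/D particles, was at 102, 106 and 107 RPKM in controls and at 71.9 and 85.6 with miR499, with 104 in miR499 3, and fell by 0.41 ± 0.09 (adjusted p = 0.017, limma). Nob1, the nuclease that makes the end of the 40S ribosomal RNA, was at 21.96, 22.6 and 21.8 RPKM in controls and at 17.7 and 17.2, with 22.9 in miR499 3, and fell by 0.33 ± 0.07 (adjusted p = 0.023, limma). Rrp9 fell by 0.32 ± 0.08 (adjusted p = 0.027, limma), a call lost with median-ratio scaling (adjusted p = 0.057, limma). Of these 8 genes, the library left out lay with the other 2 under every control for Ltv1, Dkc1 and Rrp9.

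Members that did not pass without miR499 3 also lay mostly low. Of all 35, 27 were below 0, and the groups did not overlap in 18 on the lower side (51.4%), beside 34.1% of tested genes, and in 3 on the higher side, beside 17.9%. The median log2 change was -0.15 over the members and -0.06 over all genes. All 11 factors of 60S assembly were below 0, from -0.53 for Nop2 to -0.07 for Nip7, with a median of -0.25. Noc2l was at 34.5, 38.7 and 37.3 RPKM in controls and at 32.9 and 26.3 with miR499, and Bop1 at 15.8, 17.6 and 16.3 and at 14.5 and 10.7. Their log2 changes were -0.32 ± 0.10 and -0.38 ± 0.12, with adjusted p-values of 0.064 and 0.060 by limma. Nop16, at 104, 105 and 101 RPKM in controls and 89.4 and 102 with miR499, and Rrs1, at 25.4, 29.7 and 28.3 and 27.9 and 19.2, overlapped with their controls.

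Myc itself stood at -0.14 ± 0.07, with a 95% interval from -0.29 to 0.02 (adjusted p = 0.183, limma), lower in 2 of 2 libraries. Ncl was at 79.7, 79.7 and 75.9 RPKM in controls and at 69.7 and 66.7 with miR499, a log2 change of -0.20 ± 0.07 (adjusted p = 0.073, limma). Npm1 was at 839, 741 and 785 RPKM in controls and at 762 and 800.1, with overlapping groups and a change of -0.01 ± 0.08. The highest value was that of Ddx21, 0.33 ± 0.12 (adjusted p = 0.083, limma). The subunits of RNA polymerase I, Polr1a and Polr1b, stood at 0.15 ± 0.15 and 0.02 ± 0.13.

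The remaining members stood on both sides of 0 without miR499 3. Among nucleolar proteins, Gnl3 had a log2 change of -0.16 ± 0.07, Nolc1, a chaperone of snoRNPs, one of -0.11 ± 0.08 and Mybbp1a one of 0.24 ± 0.14. Of the snoRNP proteins, Gar1 stood at -0.16, Fbl at -0.15, Nop58 at -0.13 and Nhp2 at 0.01. In the small subunit group Nop14 stood at -0.25 and Tsr1 at -0.11, while the long genes Rrp12, Heatr1 and Utp20 stood at 0.16, 0.23 and 0.31. In the 60S group Wdr12, the partner of Bop1 and Pes1, stood at -0.28 ± 0.08 (adjusted p = 0.052, limma). The helicase gene Ddx18 followed at -0.17, then Wdr74 at -0.15 and Rrp1b at -0.10. None of these passed.

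**Figure D3:**
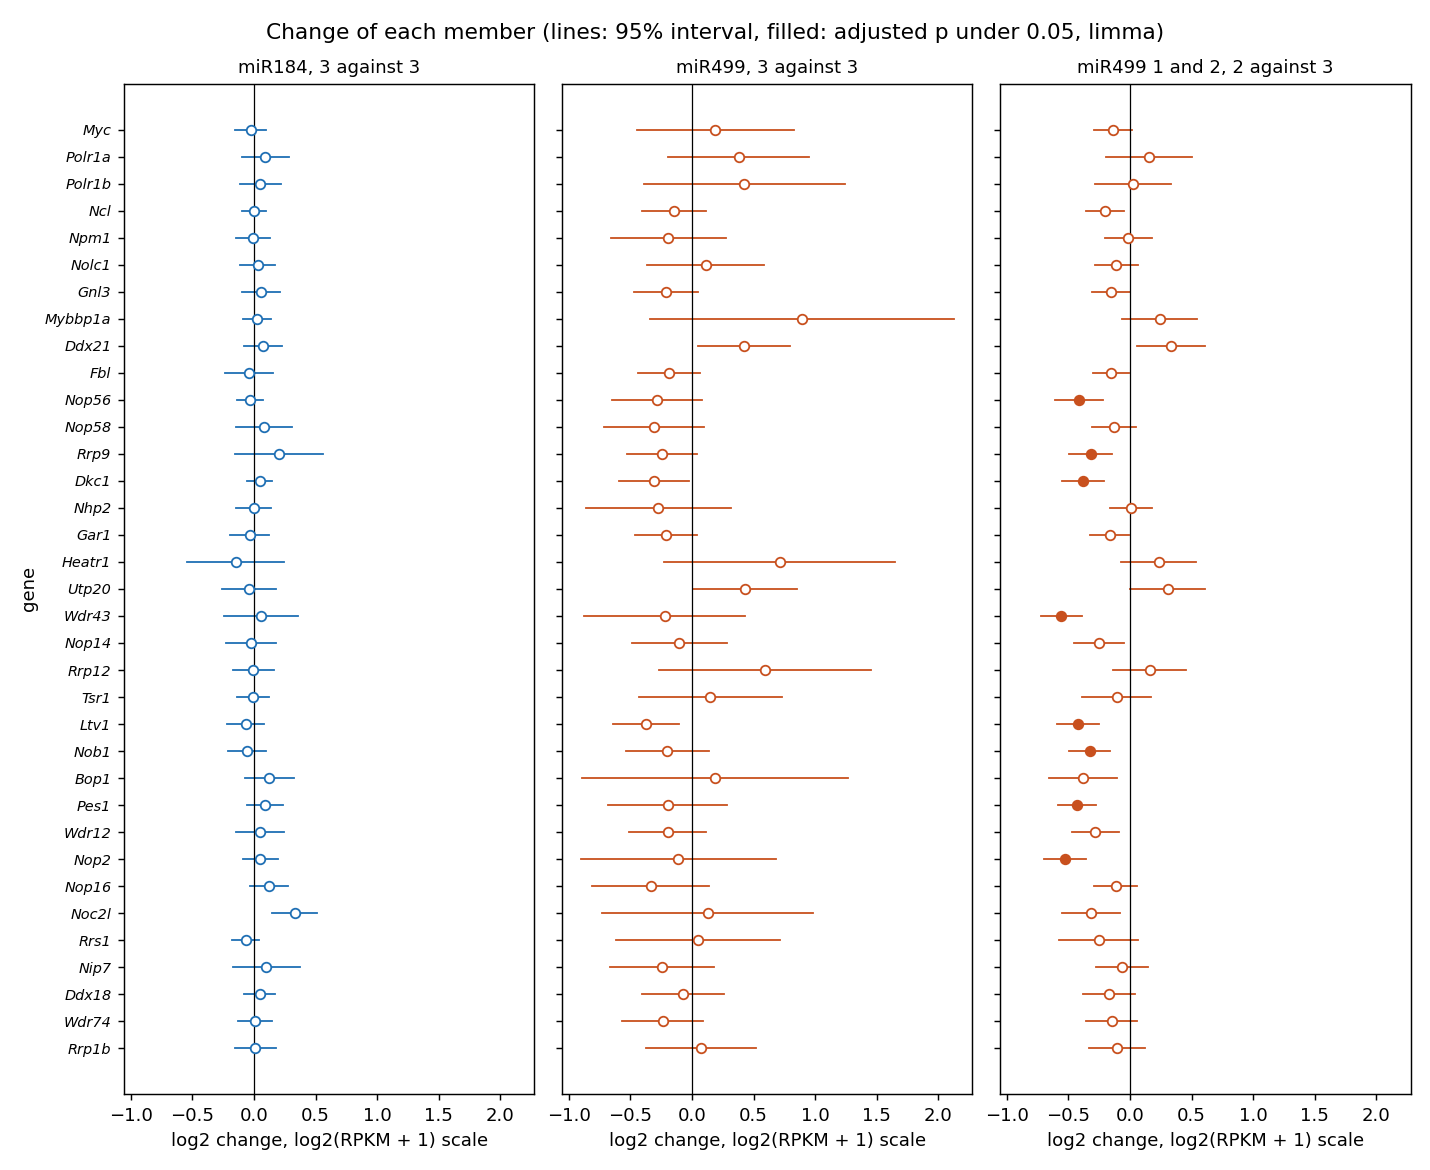
Log2 change of each member, on the log2(RPKM + 1) scale, with miR184 (left), with miR499 (middle) and with miR499 1 and 2 only (right), each against the controls of its table. Lines are 95% intervals and filled points passed an adjusted p of 0.05 by limma. No point is filled in the left and middle panels, and 8 are filled on the right, all below 0.

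Whether the 2 miRNAs differed was tested in one fit of all 12 libraries as the change with miR499 minus the change with miR184, each against its own controls. With all libraries 0 of 35 members and 0 of 10214 genes passed by limma (0.0%), and 931 genes (9.11%) and 3 members (Dkc1, Ltv1 and Utp20) had an unadjusted p under 0.05. Without miR499 3, 6 members were lower with miR499 than with miR184 and 0 higher, beside 7.1% of genes lower and 0.627% higher. These were Nop2 at -0.58 ± 0.09, Pes1 at -0.52 ± 0.09, Dkc1 at -0.43 ± 0.08, Noc2l at -0.65 ± 0.14, Nop56 at -0.38 ± 0.10 and Wdr43 at -0.61 ± 0.16, with adjusted p-values of 0.012 to 0.044 (limma). Of the 8 members that fell with miR499 1 and 2, 5 passed this test. Noc2l, the sixth, passed neither comparison on its own. Myc stood at -0.11 and did not pass. The fit without miR499 3 kept miR184 3, and a fit without both was not run. When miR184 3 was left out of the miR184 comparison, the change moved down in all of these 6 members but Noc2l. It moved most in Wdr43, from 0.06 to -0.10, and in Noc2l from 0.33 to 0.35.

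Promoters of the members were read from RefSeq (GRCm38.p6, 250 bases before to 50 after the start), which held 29 of the 35. The E-box CACGTG, which reads the same on both strands, occurred in 7 of these 29 windows (24.1%). It occurred in 12.3% of the 7525 genes tested with miR499 that had a window and in 8.09% of all 27025 genes with a RefSeq window. The 7 were Ltv1, Mybbp1a, Nop2, Pes1, Tsr1, Utp20 and Wdr43. Of the 8 members that fell without miR499 3, 4 held it, and of the other members 3 of 21 did. Of those 3, Utp20 and Mybbp1a stood above 0 in that fit, at 0.31 and 0.24 log2 units, and Tsr1 at -0.11. A link between the motif and the changes was not tested. The 4 that both held it and fell are the members of smallest p in that fit. Their windows are shown 5′ to 3′ along the gene, with CACGTG in capitals. Wdr43 lies at chr17:71615965-71616264 and Nop2 at chr6:125131633-125131932, both on the plus strand. Pes1 lies at chr11:3963725-3964024 on the plus strand and Ltv1 at chr10:13193088-13193387 on the minus strand. The motif starts 60 bases before the start base in Nop2 and 2, 17 and 28 bases after it in Pes1, Wdr43 and Ltv1. Dkc1, Nop56, Nob1 and Rrp9 fell without these letters in their windows. Binding of Myc was not measured here.
Wdr43: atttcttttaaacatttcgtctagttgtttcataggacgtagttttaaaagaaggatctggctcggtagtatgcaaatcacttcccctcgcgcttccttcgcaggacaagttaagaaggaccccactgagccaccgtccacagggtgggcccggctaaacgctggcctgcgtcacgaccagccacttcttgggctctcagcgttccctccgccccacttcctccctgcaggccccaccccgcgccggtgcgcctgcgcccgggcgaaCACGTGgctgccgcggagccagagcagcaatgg
Nop2: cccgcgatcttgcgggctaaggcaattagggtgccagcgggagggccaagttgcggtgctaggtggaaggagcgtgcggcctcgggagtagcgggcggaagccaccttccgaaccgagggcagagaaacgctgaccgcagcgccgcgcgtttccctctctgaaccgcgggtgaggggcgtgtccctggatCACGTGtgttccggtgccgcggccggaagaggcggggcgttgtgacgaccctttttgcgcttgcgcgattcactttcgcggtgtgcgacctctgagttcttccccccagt
Pes1: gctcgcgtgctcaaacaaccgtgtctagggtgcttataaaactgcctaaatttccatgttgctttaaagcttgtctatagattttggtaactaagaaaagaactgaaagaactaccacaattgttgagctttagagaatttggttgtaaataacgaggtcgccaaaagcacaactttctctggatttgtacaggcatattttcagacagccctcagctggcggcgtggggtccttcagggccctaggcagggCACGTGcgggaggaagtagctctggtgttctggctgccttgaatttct
Ltv1: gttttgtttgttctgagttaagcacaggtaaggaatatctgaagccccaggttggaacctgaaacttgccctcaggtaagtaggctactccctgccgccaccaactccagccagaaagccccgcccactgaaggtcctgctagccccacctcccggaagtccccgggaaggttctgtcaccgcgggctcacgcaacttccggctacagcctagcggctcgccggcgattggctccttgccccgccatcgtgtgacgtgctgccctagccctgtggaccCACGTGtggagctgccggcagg

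Further genes of the same processes were counted in lists that share no gene with the 35. With all libraries 0 genes of these lists passed in either comparison. The shares below stand beside 13.7% of all tested genes that fell without miR499 3 and 3.47% that rose, or 9.27% and 4.75% with median-ratio scaling. Without miR499 3, 15 of 47 further small subunit genes fell (31.9%) and 0 rose, with a median log2 change of -0.22, and with median-ratio scaling 9 fell (19.1%). Mphosph10, a partner of the U3 particle, went from 21.3 ± 0.548 to 14.7 ± 1.57 RPKM (SD, n = 3 and 2; -0.51 ± 0.09), and Rcl1, a processome protein, from 39.0 ± 2.93 to 28.1 ± 1.70 (-0.46 ± 0.09). Of 53 further 60S genes 19 fell (35.8%) and 0 rose, with a median of -0.17, and with median-ratio scaling 10 fell (18.9%). Among them were Nifk, a nucleolar partner of Ki-67, at -0.39 ± 0.07, and Gnl2, a nucleolar GTPase, at -0.55 ± 0.09. All 4 had an adjusted p of 0.011 to 0.014 (limma).

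Of 12 further snoRNP genes 3 fell (25.0%) and 0 rose, Ruvbl1, an ATPase that helps to assemble the particles, by 0.44 ± 0.08 and its cofactor gene Rpap3 by 0.51 ± 0.11 (adjusted p = 0.012 and 0.022, limma). Of 14 further genes of RNA polymerase I and its factors 2 fell (14.3%, near the share of all genes) and 0 rose, Taf1b, part of its promoter factor, by 0.36 ± 0.08 and the subunit gene Polr1e by 0.39 ± 0.09 (adjusted p = 0.021 and 0.027, limma). Among 14 tested genes of the Myc network 2 rose (14.3%) and 0 fell. Mnt, a Max partner that opposes Myc, went from 0.99 ± 0.11 to 1.80 ± 0.56 RPKM (0.48 ± 0.14), and Pim1, a kinase that acts with Myc in lymphoma, from 5.75 ± 0.90 to 8.40 ± 1.14 (0.48 ± 0.13), with an adjusted p of 0.043 and 0.041 (limma). The control mean of Mnt is under the filter of 1 RPKM, so it was tested only through the libraries where it was high, and its call supports nothing about the list. Of 34 growth genes often given as Myc targets 8 fell (23.5%) and 2 rose (5.88%), with Eif4e, the cap-binding protein of translation, at -0.44 ± 0.07 and Shmt1, an enzyme of folate metabolism, at -0.49 ± 0.08 (adjusted p = 0.011 for both, limma). With median-ratio scaling the counts for the further snoRNP and RNA polymerase I genes, the Myc network and the growth genes were equal to these.

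With miR184, Odc1, the first enzyme of polyamine synthesis and a classical Myc target, averaged 40.2 ± 13.8 RPKM in controls and 82.1 ± 13.0 RPKM with miR184 (SD, n = 3; adjusted p = 0.410, limma). Mlxip, the gene of MondoA, a relative of Myc that pairs with Mlx, was at 3.59 ± 0.81 and 7.12 ± 1.01 RPKM (adjusted p = 0.386, limma), higher in 3 of 3 libraries like Odc1. Both were picked as the genes of smallest p in their lists. Of 34 growth genes 16 lay above and 18 below 0, with a median of -0.004, and of 15 Myc network genes 9 and 6, with a median of 0.02. An unadjusted p under 0.05 (limma) was reached by 1 and 2 of them, beside 4.58% of all genes. Groups did not overlap on the higher side in 11.8% and 13.3%, beside 7.3%.

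Against controls 4 to 6, miR499 3 was higher in long members and lower in short ones. In the 11 members with the longest gene length as counted (4319 to 11955 bases) its median difference was 0.69 on the log2(RPKM + 1) scale, with 8 above 0. In the 11 shortest (1146 to 2665 bases) the median was -0.29, with 3 above 0. Spearman's rho with length was 0.42 over the 35 members and 0.45 over 10214 genes, points that share the same 4 libraries. The same members set apart the controls of the 2 tables: controls 4 to 6 minus controls 1 to 3 gave medians of 0.45 in the shortest and -1.04 in the longest, with a rho of -0.49. Heatr1, a long processome gene, was at 12.2, 13.5 and 12.7 RPKM in controls 1 to 3, at 1.71, 1.70 and 1.51 in controls 4 to 6 and at 7.41 in miR499 3. Nhp2, the shortest, was at 183, 175 and 168, at 409, 407 and 403 and at 227.

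In miR499 1 and 2 the relation to length was weaker, with a rho of 0.31 over the members and 0.21 over all genes. Their median differences from controls were -0.16 in the shortest 11 members and 0.15 in the longest 11. The 8 members that fell had lengths of 1766 to 4121 bases as counted. For miR184 3 the rho was -0.01 over the members. Other measures also moved with the miR499 libraries. The ribosomal RNA entry Rn18s-rs5 was at 26.4 to 31.0 RPKM in controls and at 63.1, 43.6 and 114 with miR499. The summed level of HSPC markers was 541 to 565 RPKM in controls and 502 to 511 with miR499. The progenitor marker Cd34 was at 82.4 to 85.7 RPKM in controls, 60.1 and 53.6 in miR499 1 and 2 and 91.1 in miR499 3. Single HSPC markers went both ways. Cd48 was at 304 to 336 RPKM in controls and at 270, 288 and 167 with miR499. Gata2 was at 25.1 to 27.8 and at 32.3, 34.8 and 51.1, and Lyl1 at 6.29 to 7.54 and at 15.2, 10.7 and 12.4. Summed neutrophil markers were at 6613 to 7957 RPKM in controls, 6639 and 6934 in miR499 1 and 2 and 10700 in miR499 3. The part of these measures in the values of the members was not tested.

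**Figure D4:**
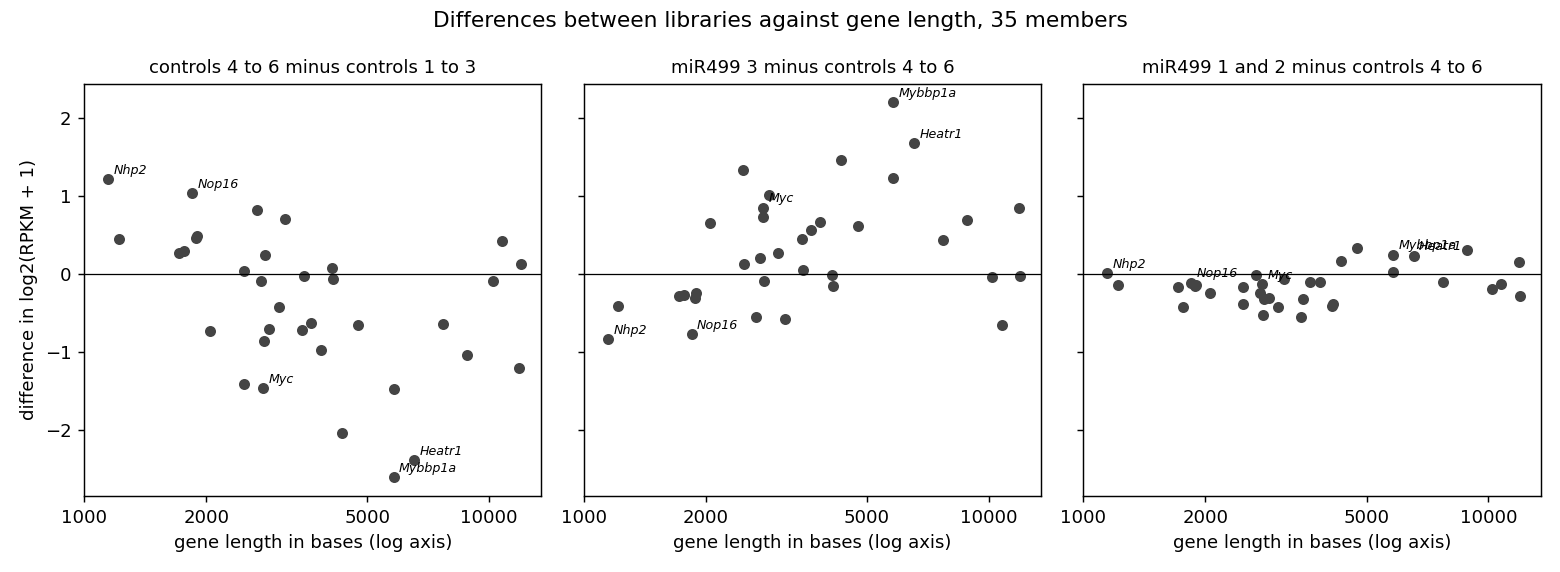
Difference in log2(RPKM + 1) for the 35 members (points) against gene length as counted, in bases on a log axis. The panels show controls 4 to 6 minus controls 1 to 3, miR499 3 minus controls 4 to 6, and the mean of miR499 1 and 2 minus controls 4 to 6. The first panel falls with length (rho -0.49), the second rises (rho 0.42) and the third is flatter (rho 0.31).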

How the data were processed

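RNA of sorted bone marrow cells (PicoPure extraction) went into Illumina libraries, per the labels' protocols. The authors deposited 2 tables of RPKM values, per the file headers, each with 3 treated and 3 control libraries. Per the submitters' processing notes, reads were placed on mm10. How they were aligned and counted, and whether strand was used, is not given in the sources used here. Genes that overlap, lie antisense or have near-identical copies may therefore share reads. The number of unused columns of values was 0.

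Groups came from the sample titles, which match the treatment labels. Genes with a mean of at least 1 RPKM were tested on log2(RPKM + 1) with limma (version 3.58.1, R 4.3.3, intensity trend, two-sided), with Benjamini-Hochberg adjustment over all genes tested and a threshold of 0.05. Fold changes on this scale understate those of low genes. The difference between the miRNAs is a contrast over 12 libraries. Whole reads were recovered from the RPKM steps (100% of values above 0 whole within 0.01 reads, 21134 genes) and gave the library totals, the lengths and the voom test, which is an alternative. Up to 3 reads remain possible where 0 were counted, for counting error only. Replicates differed by more than counting noise (9.89 to 424 for chi-square over its degrees of freedom), and none was taken as a second deposit. The scripts were tested on simulated data with known changes. The smallest p that an exact permutation test allows here is 0.1.

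Values in every library are given for Myc, Ncl, Npm1, Fbl and the 5 members of smallest p in each comparison, with and without miR184 3 or miR499 3, and up to 2 genes of each further list are named. Mybbp1a, Heatr1, Nhp2, Nop56 and Nob1 were added after their values were seen, as were the promoters shown. Members and lists were chosen with earlier results of these data known. Positions and 3′ UTRs came from GENCODE M21 (GRCm38), whose symbols match 96.3% of genes above 0. Tables and figures were made in Python 3.11.15 (matplotlib 3.10.9, pandas 2.3.3, numpy 2.4.6).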

Additional observations from a re-analysis of the deposited data

How the results depend on the processing

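No value of a member reversed its sign while called. With miR184, 0 members and 0 genes passed under other scalings, pseudocounts (0.1 or 5), filters, voom or a fit of all 12 libraries. Array weights, which gave miR184 3 a weight of 0.118, let 167 genes and 1 member pass (Noc2l, adjusted p = 0.029, limma), while its adjusted p ran from 0.191 to 1.0 under the other alternatives. A replicate block let 2 genes pass, and leaving out 1 library at a time gave 0 to 2 genes and 0 members. With miR499, leaving out 1 library at a time gave 0 to 1681 genes and 0 to 8 members, both highest without miR499 3. For miR499 array weights gave 1 library a weight of 174 and no usable values.

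For the difference between the miRNAs, a z statistic from separate fits let 59 genes and 0 members pass, and leaving out 1 library at a time gave 0 to 789 genes and 0 to 6 members. For miR499 1 and 2, whose alternatives were all chosen after seeing the data, the members' median of -0.15 became -0.11 with median-ratio scaling, -0.17 at a mean of at least 5 RPKM and -0.11 with voom. The members that passed were 7 of 35, 11 of 30 and 7 of 35 in that order. Beside them, 1376 of 9815, 1684 of 5598 and 1484 of 9815 genes passed. Leaving out 1 of the 5 libraries gave 2 to 3310 genes, 0 to 16 members and medians of -0.17 to -0.14.

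The replicate numbers were not used to pair the libraries in the main fits. Titles and descriptions number them differently. Same-numbered libraries correlated at 0.06, -0.05 and -0.03 with miR184 (numbers of the titles) and at 0.20 and -0.35 with miR499 (numbers of the descriptions). These are correlations of deviations from the mean of each group of 3, to which miR499 3 adds much. They cannot show whether libraries are paired. With the replicate block, 426 genes and 3 members (Wdr43, Nop2 and Pes1) passed with miR499, and 433 genes and the same 3 members for miR499 1 and 2. In both, control 6 is alone in its block, as is miR499 3 in the first. Lone libraries add nothing to the estimate, so both fits compare miR499 1 and 2 with controls 4 and 5. Depth limits low members most, such as Utp20 and Polr1a.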
